A study of Mus musculus with 6 samples.

Results

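Multiciliated2 is the cluster of early, deuterosomal multiciliated cells in primary tracheal epithelial cultures of wild-type and *Dnaaf5* mutant mice. Its members are the cells that the authors' cell table names Multiciliated2, and they number 857 of 23871 cells (3.59%) in 16 clusters, and 17.8% of the 4823 cells in the 4 multiciliated clusters. The cultures were grown at air-liquid interface, a method in which basal cells of the trachea rebuild a ciliated surface, and were profiled by droplet scRNA-Seq. They came from 3 WT/WT mice (numbered 1, 2 and 3) and 3 MIS/MIS littermates (MT1301, MT1306 and MT1383), all 12 weeks old and on a C57BL/6 background. MIS is a cysteine-to-phenylalanine missense allele of *Dnaaf5*, a factor for the cytoplasmic assembly of dynein arms. It was made with Cas9 together with a silent change next to it. The labels name no other allele or treatment. Levels are given as CPM, the unique molecular identifiers (UMIs) of a gene per 1000000 UMIs, summed per mouse over the cells of a cluster. Since the assay reads the 3′ ends of transcripts, levels are compared between clusters and mice and not between genes.

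A multiciliated cell leaves the cell cycle and then builds a large number of basal bodies, one for each cilium. Most of these centrioles grow on deuterosomes, ring-like structures that exist only for this step and are organised by *Deup1*. The transcription program starts with *Gmnc* and *Mcidas*, which act with *E2f4* and *E2f5*, and passes to *Foxj1* and the Rfx factors, which drive the genes of the axoneme. Parts of the mitotic machinery are used again without cell division to time centriole growth and release.

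The library of each mouse held between 55 and 342 Multiciliated2 cells, with 2774228 to 11463158 UMIs in all. The median cell had 38781 UMIs, 6352 genes and 10.7% mitochondrial UMIs. The median was 26360 UMIs in Multiciliated3 and 32469 in Multiciliated1. Of the Multiciliated2 cells, 105 (12.3%) had more than 7500 genes, above the upper limit given for the filtered cells, against 2.39% of all other cells. No doublet caller was run. A barcode shared between libraries occurred in 3 Multiciliated2 cells, and no barcode occurred in Multiciliated2 of more than 1 library.

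The cells carried the 5 markers given for this state. *Deup1*, *Ccno* (a cyclin-like protein needed for centriole amplification), *Mcidas*, *Hyls1* (a centriole protein required for cilium formation) and *Shisa8* (a membrane protein) all had their highest mean level of the 16 clusters in Multiciliated2. The share of all genes of at least 5 CPM in any cluster that were highest there was 10.6% (1392 of 13175). The clusters were built from the same genes, so levels between clusters are a description without a test. Single cells carried the markers together: 853 of 857 cells had a UMI of at least 1 of them, 793 (92.5%) of at least 3 and 639 (74.6%) of all 5. In the other clusters 56 of 23014 cells (0.243%) had at least 3. By mouse the share with at least 3 was lowest in WT/WT mouse 2, at 88.1%, and all cells of WT/WT mouse 1 had at least 3.

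*Deup1* was at 348, 319 and 397 CPM in the WT/WT mice and at 317, 346 and 421 CPM in MT1301, MT1306 and MT1383. The next cluster, Multiciliated3, had 13.9 CPM on average. *Ccno* was at 550, 380 and 461 CPM in WT/WT mice and at 417, 445 and 454 CPM in MIS/MIS mice, against 8.02 CPM in Multiciliated3. Both genes separated Multiciliated2 from every other cluster in each mouse, while the genotypes overlapped. *Mcidas* was at 194, 114 and 141 CPM in WT/WT and at 135, 156 and 143 CPM in MIS/MIS mice, and no other cluster exceeded a mean of 2.28 CPM. *Hyls1* averaged 198 ± 32.7 CPM (SD, n = 6 mice), against 7.07 CPM in Basal6, the proliferating basal cells. *Shisa8* was the most restricted of the 5, with 247 ± 26.9 CPM in Multiciliated2 and at most 0.479 CPM elsewhere.

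**Figure D1:**
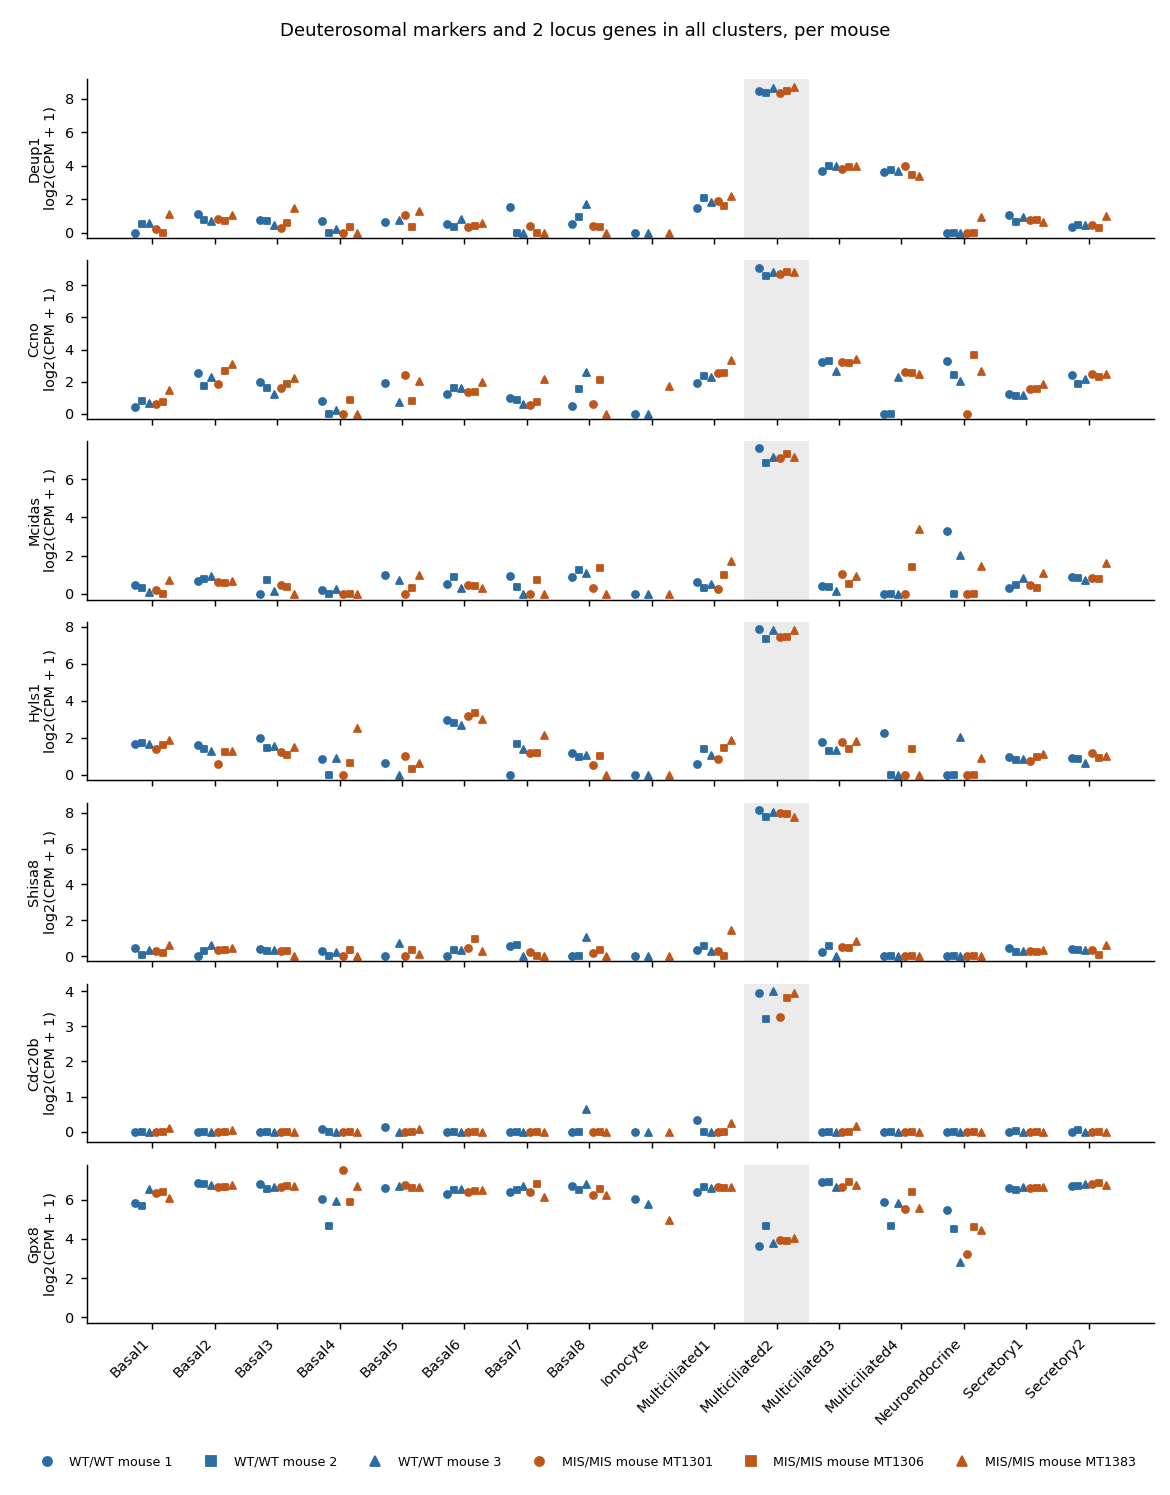
Levels of the 5 markers and of *Cdc20b* and *Gpx8* (rows, log2 of CPM + 1) in the 16 clusters (columns); each point is 1 mouse, blue for WT/WT and orange for MIS/MIS, and mice without cells in a cluster have no point. *Deup1*, *Ccno*, *Mcidas*, *Hyls1*, *Shisa8* and *Cdc20b* stand above the other clusters in the shaded Multiciliated2 column in 6 of 6 mice. *Gpx8* has its lowest mean there, with overlap with neuroendocrine cells.

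When each cell was thinned to 5000 UMIs to remove the effect of depth, which left out 0 of these cells, *Deup1* was detected in 65.2% of Multiciliated2 cells (95% Wilson interval 62.0 to 68.3%). The share was 6.93% in Multiciliated3 and 0.214% in Basal1, basal cells that should lack the gene and stand here for free RNA, with a median of 28982 UMIs. *Ccno* was detected in 78.2%, 4.02% and 0.428% of the cells of these clusters. *Mcidas* was detected in 48.8%, 0.332% and 0.171%, so that its share in Multiciliated3 lay near the background while that of *Deup1* did not. These intervals cover counting error only.

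The promoters of 4 of the 5 markers hold the 6-base RFX half-site GTTGCC, the core of the X-box that RFX factors bind, or its reverse complement GGCAAC, within 250 bases before an annotated start. They are shown because these genes are highest together in 1 cluster, with the half-site in capitals, 5′ to 3′ on the strand of the gene. Sequences and starts are those of RefSeq on GRCm38.p6. The windows are *Shisa8* at chr15:82213036-82213065 (minus strand), *Mcidas* at chr13:112993661-112993690 (plus), *Ccno* at chr13:112987571-112987600 (plus) and *Deup1* at chr9:15627908-15627937 (minus, 1 of its 2 annotated starts).
Shisa8: tcatccaagGTTGCCaagatccgaatcccc
Mcidas: gggggaagccagGTTGCCaggttggttaac
Ccno: acccgggctgcgGTTGCCacggtgacgaca
Deup1: ccgcgtctccatGGCAACccactgggaacc
The half-site begins 241, 195, 219 and 79 bases before the start in these 4 genes, and these letters do not occur in the window of *Hyls1*. By the gene spans of GENCODE M21, the half-site of *Deup1* and the whole *Hyls1* window lie inside the gene. These 2 outcomes thus depend on the RefSeq starts used. Of all 27025 genes with a listed promoter, 11.8% hold it in at least 1 window. The share was 14.1% among the 4984 matched genes of at least 20 CPM in Multiciliated2, and 18.5% (27 of 146 matched) among the 179 genes that were at least 2-fold over every other cluster. The motif was picked after the levels were known, and a match is a description of the letters and not evidence of binding.

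The whole upstream window of *Ccno*, chr13:112987552-112987801 on the plus strand, ends at the base before the annotated start of the gene and reads as follows, with the half-site in capitals.
Ccno upstream: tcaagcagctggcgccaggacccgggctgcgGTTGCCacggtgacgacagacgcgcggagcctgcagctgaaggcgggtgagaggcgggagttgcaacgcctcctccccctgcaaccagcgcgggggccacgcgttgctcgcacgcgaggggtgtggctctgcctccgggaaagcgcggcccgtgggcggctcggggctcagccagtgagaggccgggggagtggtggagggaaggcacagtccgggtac

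The genes most restricted to Multiciliated2 were taken by the ratio of its mean level to that of the next cluster. Of 6192 genes of at least 20 CPM in Multiciliated2, 1082 were highest there and 179 exceeded every other cluster at least 2-fold. The ratios of the leading 20 ranged from 9.65 to 516, and all 5 given markers were among them, with *Shisa8* at the top. *Plvap*, which forms the diaphragms of endothelial pores, came next with 102 ± 15.6 CPM against 0.660 CPM in Multiciliated4. *Foxn4*, a forkhead factor of early multiciliated cells, followed with 30.4 ± 5.88 CPM against 0.223 CPM in Multiciliated3. *Spn* (sialophorin), *Clec12a* (a lectin receptor) and *Fgl1* (a fibrinogen-like protein) are known from blood cells or liver, and were at 26.9, 28.9 and 44.98 CPM, at least 11.3 times the next cluster. *Ptprc*, which defines leukocytes, was at 0.406 CPM and *Pecam1*, which defines endothelium, at 0.758 CPM in the same cells. *Pidd1*, a protein that activates caspase-2 at supernumerary centrosomes, was at 61.3 ± 5.37 CPM against 5.84 CPM in Basal6. *Pbx4* (a homeobox factor) and *Cep76* (a centriole protein that limits reduplication) were at 126 and 44.6 CPM, against 10.7 CPM in Multiciliated4 and 4.38 CPM in neuroendocrine cells.

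*Dnah8*, the heavy chain that serves the outer arms of sperm, was the 1 dynein among the 20, with 34.0 ± 3.09 CPM in Multiciliated2 and 3.02 CPM in Multiciliated3. The long noncoding RNA *1700097N02Rik*, which overlaps *Dnah8* on the opposite strand in GENCODE M21, was also among them, with 32.8 CPM against 0.869 CPM. The other noncoding or unnamed genes of the 20 were *4930444F02Rik*, *Foxd2os*, *A430088P11Rik* and *9130017K11Rik*. *Hyls1*, *Plvap*, *Ccna1* and *Deup1* also overlap genes of the opposite strand, and the strand setting of the counting is not given in the sources used here.

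Of 15 listed regulators of the multiciliated fate 7 were highest in Multiciliated2, against 10.6% of all genes. The 7 include *Mcidas* and *Ccno*, which are given markers of this state. *Myb*, a factor of early multiciliogenesis, was at 519 ± 85.2 CPM against 98.3 CPM in Multiciliated3. *Foxj1*, the factor that drives motile cilium genes, was at 717 ± 68.7 CPM against 346 CPM in Multiciliated3. *Gmnc*, which acts before *Mcidas*, was low with 5.52 ± 1.92 CPM, and its highest mean was 26.0 CPM in Multiciliated1. *Rfx2* and *Rfx3* were at 43.4 and 41.4 CPM and higher in Multiciliated3, at 73.7 and 95.9 CPM. *Gmnn* (geminin), the replication inhibitor to which the fate regulators are related, was at 22.5 CPM against 142 CPM in Basal6. *E2f4* was at 33.0 CPM in Multiciliated2 and 22.1 CPM in Multiciliated3, and *E2f5* at 22.2 and 39.8 CPM. *E2f7*, a repressor of cycle genes looked at after its value was seen, was at 94.2 CPM in Multiciliated2 and 11.1 CPM in Basal6.

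Centriole amplification genes were concentrated in these cells, with 26 of 34 members highest in Multiciliated2. The 26 include the given markers *Deup1* and *Hyls1*. Against Multiciliated3, 21 of 34 were at least 2-fold higher in 6 of 6 mice and 2 were at least 2-fold lower, where 7.53% and 12.7% of all genes were. *Plk4*, the kinase that starts centriole duplication, was at 261, 211 and 223 CPM in WT/WT and at 194, 239 and 240 CPM in MIS/MIS mice, and the next cluster was Basal6 with 41.9 CPM. *Stil* and *Cep152*, partners of *Plk4*, were at 60.3 and 44.96 CPM against 7.55 and 4.73 CPM in Basal6. *Cntrob*, *Poc1a* and *Cep295*, which act in centriole elongation and stability, exceeded the next cluster by 5.81, 4.75 and 4.34 times. *Pcm1* and *Pcnt*, the matrix in which deuterosomes form, were at 538 and 253 CPM against 215 and 84.4 CPM in Multiciliated3. *Sass6*, the cartwheel protein, was at 59.8 CPM against 22.4 CPM in Multiciliated4. Among the members not highest in Multiciliated2 were *Ccdc78*, a deuterosome component, at 50.3 CPM against 131 CPM in Multiciliated3, and *Cetn4*, a centrin of finished basal bodies, at 146 CPM against 822 CPM in Multiciliated4.

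Many cell cycle genes were above their level in Multiciliated3, and many were below that in Basal6, with exceptions in both lists. Against Basal6, 5 of 31 genes of the mitotic oscillator list were at least 2-fold higher in 6 of 6 mice and 14 at least 2-fold lower, while 12.9% of all genes were higher and 8.33% lower by that rule. In the DNA replication and proliferation list, 1 of 31 was higher and 19 lower. Against Multiciliated3, in contrast, 16 of 23 and 18 of 26 compared members of these lists were at least 2-fold higher, and 1 and 0 were lower. *Cdk1*, the mitotic kinase, was near its Basal6 level, at 286 ± 27.0 CPM against 254 CPM. Its binding subunit *Cks2* was at 483 ± 41.9 CPM against 359 CPM. *Ccna2*, the A-type cyclin of dividing cells, was at 1.48 CPM against 73.9 CPM in Basal6. *Ccna1*, the A-type cyclin known from germ cells, was at 65.6 ± 16.8 CPM against 0.422 CPM in Basal6.

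The inhibitors of the anaphase-promoting complex showed the same exchange. *Fbxo5* (Emi1), the inhibitor of dividing cells, was at 1.25 CPM in Multiciliated2 and 51.2 CPM in Basal6. Its germ-cell relative *Fbxo43* (Emi2) was at 18.9 ± 4.07 CPM in Multiciliated2 and 0.140 CPM in Basal6. *Cdkn1a* (p21), which stops the cycle, was at 1463 ± 181 CPM, against 528 CPM in Multiciliated3 and 341 CPM in Basal6. *Mki67*, a mark of dividing cells, was at 8.22 CPM against 232 CPM in Basal6, and *Mcm5*, of the replication helicase, at 2.69 against 98.2 CPM. *Ccnb2*, a mitotic cyclin, and *Ube2c*, which works with the anaphase-promoting complex, were at 8.30 and 17.0 CPM against 124 and 422 CPM. *Ckap2l*, a spindle protein, and *Slbp*, which binds histone mRNA, were the 2 members of the proliferation list highest in Multiciliated2, at 166 and 195 CPM against 68.8 and 127 CPM in Basal6.

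**Figure D2:**
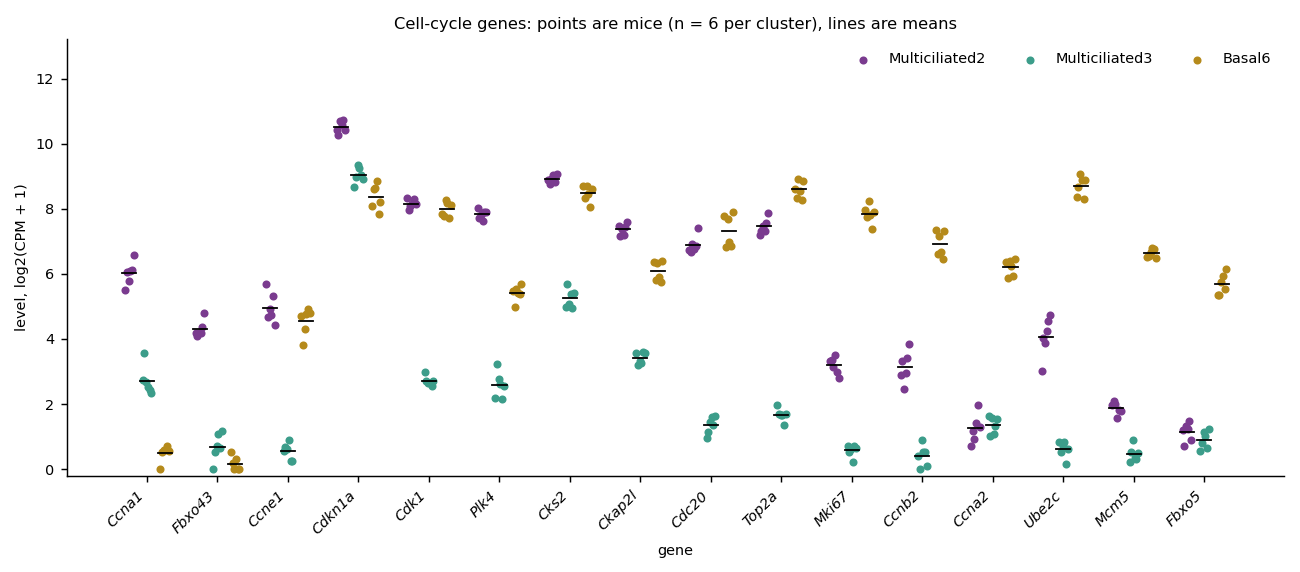
Levels of 16 cell cycle genes (log2 of CPM + 1) in Multiciliated2, Multiciliated3 and Basal6; each point is 1 of 6 mice and each line is a mean. *Ccna1* and *Fbxo43* lie above Basal6 in 6 of 6 mice, *Cdk1* is near it, and *Mki67*, *Ccnb2*, *Ccna2*, *Ube2c*, *Mcm5* and *Fbxo5* lie far below it.

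The same contrast held within single cells that had a *Cdk1* UMI at 5000 UMIs per cell. Of 565 such Multiciliated2 cells, 4.96% also had an *Mki67* UMI (95% Wilson interval 3.45 to 7.07%), against 63.2% of 424 such Basal6 cells (58.5 to 67.7%). *Ccna1* was detected in 22.3% of the former, and in 0 of 424 of the latter, which allows a share with a UMI at this depth of up to 0.708% (3 counts) and has a Wilson upper bound of 0.898%. Without thinning, *Ccna1* was detected in 1.59% of all Basal6 cells and in 43.1% of all Multiciliated2 cells. At 5000 UMIs, *Deup1* was detected in 69.9% of the Multiciliated2 and 0.472% of the Basal6 cells with a *Cdk1* UMI, and *Plk4* in 64.1% and 26.2%. By mouse the shares in Multiciliated2 ranged from 42.1 to 84.1% for *Deup1*, 58.9 to 79.1% for *Plk4* and 10.5 to 30.3% for *Ccna1*. In Basal6 that of *Plk4* ranged from 13.6 to 37.0%. *Mki67* ranged from 2.27 to 5.56% in Multiciliated2 and from 61.9 to 66.7% in Basal6. *Top2a*, the topoisomerase of chromosome condensation, was detected in 50.3% of these Multiciliated2 cells and in 76.2% of these Basal6 cells, so that not all genes of dividing cells were rare. The 2 clusters had medians of 38781 and 32916 UMIs before thinning.

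The genes of the finished cilium were present but below their level in the more mature clusters. Of 32 compared genes of radial spokes, the central pair and the nexin link, 0 were at least 2-fold higher than in Multiciliated3 and 16 were at least 2-fold lower. For outer dynein arms the counts were 0 and 9 of 13, and for intraflagellar transport 0 and 7 of 29. *Dnah5*, an outer arm heavy chain, was at 127 ± 35.4 CPM against 657 CPM, and *Hydin*, of the central pair, at 16.2 against 166 CPM in Multiciliated3. For inner dynein arms they were 1 and 5 of 14. That list also held *Dnah8*, the outer-arm chain of sperm, which was 11.2 times its level in Multiciliated3. Of the factors that assemble dynein arms in the cytoplasm 1 of 18 was at least 2-fold higher, against 7.53% of all genes, and 0 were lower, against 12.7%, and 6 of 18 were highest in Multiciliated2. *Zmynd10*, one of these factors, was at 163 ± 28.7 CPM against 81.5 CPM in Multiciliated3 and exceeded it in 6 of 6 mice. *Dnaaf5* itself was at 34.2 ± 5.32 CPM against 68.4 CPM in Multiciliated3. Among genes of the basal body and transition zone, *Cby1* and *Tmem107* exceeded the next cluster 2.65 and 2.27 times, at 356 and 707 CPM, whereas *Ttbk2*, the kinase that starts ciliogenesis, was at 15.04 CPM against 94.1 CPM.

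Among tubulins, *Tuba1b* was at 1238 CPM, 2.01 times the next cluster, and *Tuba1a*, another alpha-tubulin, was at 716 CPM against 2471 CPM in Multiciliated4. Of 23 Notch pathway genes of at least 5 CPM in any cluster 0 were highest in Multiciliated2, against 10.6% of all genes. *Dll1*, a ligand linked to this fate choice, was at 0.274 CPM, and its highest mean was 27.4 CPM in Basal3. *Jag1*, another ligand, was at 58.2 CPM, and the Notch target *Hes1* was at 294 CPM.

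The genes *Ccno*, *Mcidas* and *Cdc20b* lie side by side on chromosome 13 and had their highest level in the same cells. In GENCODE M21 on GRCm38, *Ccno* extends from 112987802 to 112990777, *Mcidas* from 112993845 to 113000394 and *Cdc20b* from 113035111 to 113091195, all on the plus strand. *Cdc20b*, a relative of *Cdc20* known from deuterosomal cells, was at 14.5, 8.22 and 15.01 CPM in WT/WT and at 8.58, 12.98 and 14.5 CPM in MIS/MIS mice. No other cluster had a mean above 0.0937 CPM. *Gpx8*, a peroxidase of the endoplasmic reticulum, lies inside the span of *Cdc20b* on the minus strand (113042753 to 113046410) and showed the opposite pattern. It was at 11.6, 23.8 and 12.6 CPM in WT/WT and at 14.3, 13.7 and 15.3 CPM in MIS/MIS mice, the lowest mean of the 16 clusters, against 110 CPM in Multiciliated3 and 71.5 CPM in Basal1. Neuroendocrine cells, at 43.9, 21.9 and 6.17 CPM in WT/WT and 8.29, 23.45 and 20.5 CPM in MIS/MIS mice, overlapped with Multiciliated2. The 12 larger other clusters, which leave out neuroendocrine cells, ionocytes and Multiciliated4, had 4158 genes of at least 20 CPM in each. Of these genes *Gpx8* was lowest in Multiciliated2 relative to the lowest of those clusters, with a ratio of 0.213. The next was *Ccnd1* (cyclin D1), at 54.2 CPM against 176 CPM in Multiciliated1.

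*Cdc20b* also hosts the miR-449 genes, known to repress cell cycle and Notch genes in multiciliated cells. They lie in its annotated span on the same strand, *Mir449c* from 113035983 to 113036091, *Mir449b* from 113037419 to 113037498 and *Mir449a* from 113037534 to 113037624. The mature miRNAs were not measured in this assay. Those in the RefSeq table share a seed (bases 2 to 8, in capitals).
mmu-miR-449a-5p: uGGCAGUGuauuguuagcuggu
mmu-miR-449c-5p: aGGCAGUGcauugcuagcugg

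Markers of other cell types were measured in Multiciliated2 too. The 8 basal markers summed to 536 to 1050 CPM per mouse, against 12517 CPM in Basal4, and *Krt5*, which defines basal cells, was at 11.4 CPM. The 13 secretory markers summed to 9553 to 14085 CPM, against 82626 CPM in Secretory1. Neuroendocrine and ionocyte markers summed to at most 2.45 and 6.77 CPM, and *Foxi1*, which defines ionocytes, was at 0 in 6 of 6 mice. The 5 immune markers summed to 92.7 to 587 CPM, with a mean of 250 CPM for *Lyz2*, which epithelial cells also express, and *Ptprc* at 0.406 CPM. The part of these markers in the levels above was not tested.

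The cells were then ordered within each mouse by their share of UMIs on 27 genes of microtubule inner proteins and tektins, and split into tertiles of 289, 284 and 284 cells. The summed level of these genes was 932, 4092 and 9217 CPM in the lowest, middle and highest tertile, which the ordering sets and is no result. The tertiles had medians of 36440, 39560 and 39380 UMIs. Counting all 10704 genes of at least 5 CPM in 1 of the tertiles, 34.9% were higher in the highest than in the lowest tertile in 6 of 6 mice, 27.2% were lower and 0.775% had their highest level in the middle tertile. The ordering follows genes that mature with the cilium, so differences along it are a description without a test.

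Members of the DNA replication and proliferation list went in both directions. Most of the measured secretory genes were lower in the highest than in the lowest tertile. Of 27 measured genes of the DNA replication and proliferation list 9 were lower in the highest than in the lowest tertile in 6 of 6 mice and 12 were higher. By that rule 27.2% of all genes were lower and 34.9% were higher. Of 7 basal genes 4 were lower and 1, *Dapl1*, was higher. *Ccne1* (cyclin E1) went from 66.3 to 24.5 and 5.70 CPM, *Pcna* from 268 to 79.5 and 16.4 CPM, and *Cdt1*, a licensing factor, from 61.8 to 26.5 and 3.81 CPM. In these 3 genes the lowest and highest tertiles did not overlap between any mice. *Krt15*, a basal keratin, went from 1448 to 71.2 CPM and *Cyp2f2*, a club-cell enzyme, from 6531 to 362 CPM between the lowest and the highest tertile. *Hes1* went from 435 to 159 CPM. Of 10 secretory genes of sufficient level 8 were lower in the highest tertile in 6 of 6 mice and 0 were higher.

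The deuterosomal genes did not share a single course along this order. *Mcidas*, *Shisa8* and *Cdkn1a* were highest in the middle tertile in 6 of 6 mice, at 142, 178 and 122 CPM, 198, 301 and 243 CPM, and 1413, 1748 and 1237 CPM. *Deup1*, *Hyls1* and *Foxn4* were highest in the highest tertile, with 133, 360 and 568 CPM for *Deup1*, 98.6, 216 and 274 CPM for *Hyls1* and 10.7, 28.9 and 50.3 CPM for *Foxn4*. *Plk4* was at 145, 268 and 268 CPM, and *Ccno* at 365, 481 and 505 CPM. Of 34 genes for centriole amplification 30 were higher in the highest tertile in 6 of 6 mice and 0 were lower.

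Members of both cell cycle lists differed in their course. Of 25 measured genes of the mitotic oscillator list 16 were higher in the highest tertile in 6 of 6 mice and 6 were lower. *Ccna1* went from 0.744 to 32.5 and 157 CPM, *Cdc20*, the activator of the anaphase-promoting complex, from 23.2 to 94.1 and 235 CPM, and *Aurka*, a centrosomal kinase, from 11.1 to 47.3 and 97.6 CPM. *Rrm2*, a subunit of ribonucleotide reductase, went from 0.674 to 17.6 CPM and *Top2a* from 22.2 to 343 CPM between the lowest and highest tertile. *Mki67* was at 3.63, 13.9 and 7.16 CPM. *Ccdc78* went from 0.911 to 119 CPM, and *Poc1a* from 18.6 to 198 CPM. *Pidd1* had no such course, at 59.8, 65.3 and 58.7 CPM.

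**Figure D3:**
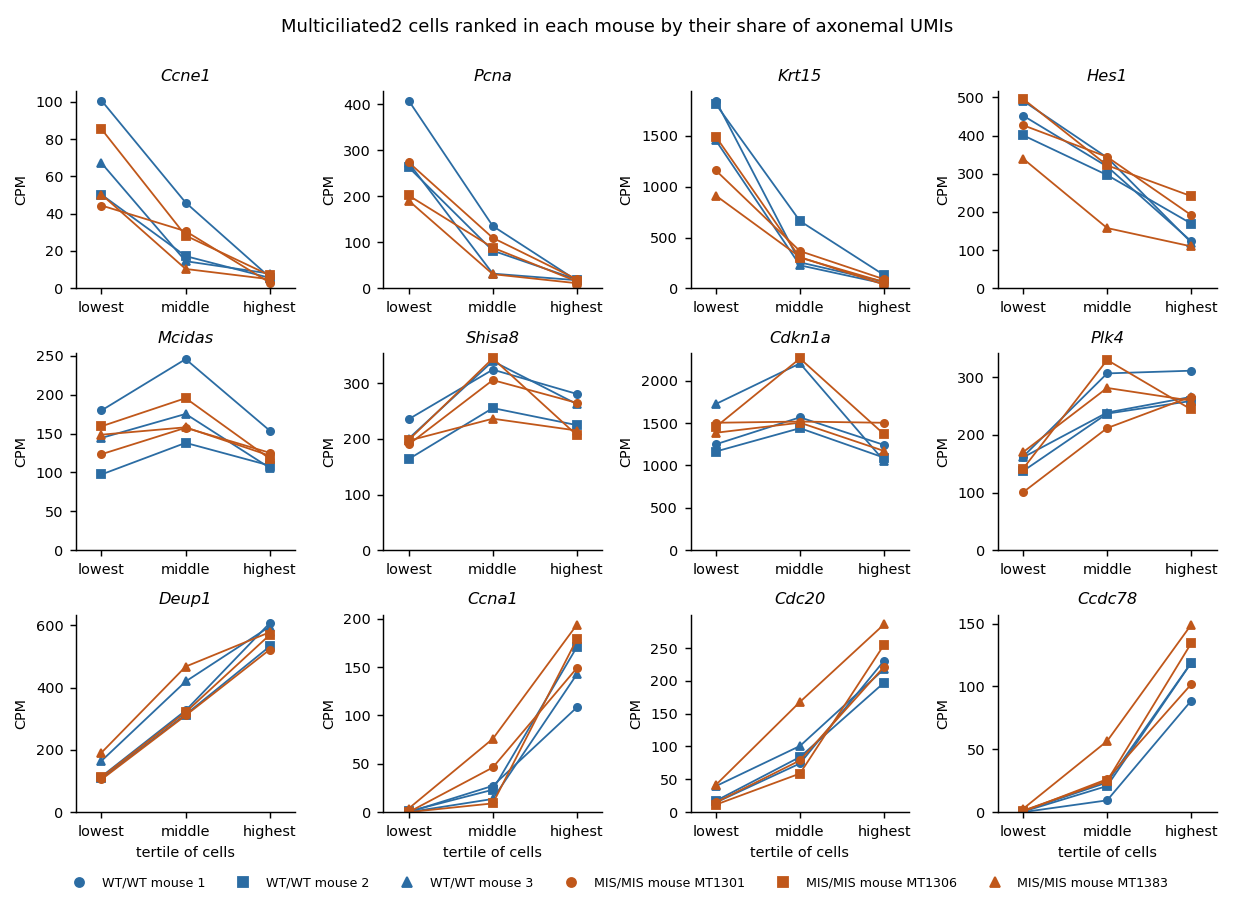
Levels of 12 genes (CPM) in the lowest, middle and highest tertile of Multiciliated2 cells, ordered within each mouse by their share of UMIs on microtubule inner protein and tektin genes; each line is 1 mouse, blue for WT/WT and orange for MIS/MIS. In 6 of 6 mice *Ccne1*, *Pcna*, *Krt15* and *Hes1* are lower in the highest than in the lowest tertile, *Mcidas*, *Shisa8* and *Cdkn1a* are highest in the middle tertile, and *Deup1*, *Ccna1*, *Cdc20* and *Ccdc78* are higher in the highest tertile.

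The authors' finer clustering divided the cluster in the same direction. This clustering was built from the same cells and genes, so the likeness is a description and not separate evidence. It held 545 cells in 1 subcluster and 311 in another, with 1 cell in neither. Of the lowest tertile 92.7% were in the smaller subcluster, of the middle tertile 15.1% and of the highest 0%. *Ccne1* was at 66.6 CPM in the smaller and 10.1 CPM in the larger subcluster, *Ccna1* at 0.642 and 104 CPM, and *Deup1* at 141 and 489 CPM. *Mcidas* was at 150 and 146 CPM. The smaller subcluster made up 49.1, 41.6 and 35.9% of the Multiciliated2 cells of the WT/WT mice and 41.7, 36.4 and 28.9% of those of the MIS/MIS mice, with overlap (exact two-sided permutation test, p = 0.5).

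The first genotype question is whether the mutation altered how many cells were in this state. Multiciliated2 made up 1.94, 4.17 and 2.31% of all cells in WT/WT mice and 3.45, 2.06 and 5.10% in MIS/MIS mice. The means were 2.81 ± 1.20% and 3.53 ± 1.52% (SD, n = 3 each), and the difference was within the spread between mice (exact two-sided permutation test, p = 0.6). Of the multiciliated cells it made up 16.6, 34.7 and 14.2% in WT/WT and 21.3, 8.45 and 15.9% in MIS/MIS mice (21.8 ± 11.2% against 15.2 ± 6.45%, exact p = 0.5). Adjusted over the 2 shares, both p-values were 0.6, and 3 mice against 3 can give no p below 0.1. Within the stated cell filters, which remove the cells of over 7500 genes, the differences were 0.831 and -5.65 percentage points. Without MT1383 the difference in the share of all cells was -0.052 percentage points in place of 0.729, and without WT/WT mouse 2 that in the share of multiciliated cells was -0.193 in place of -6.63.

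**Figure D4:**
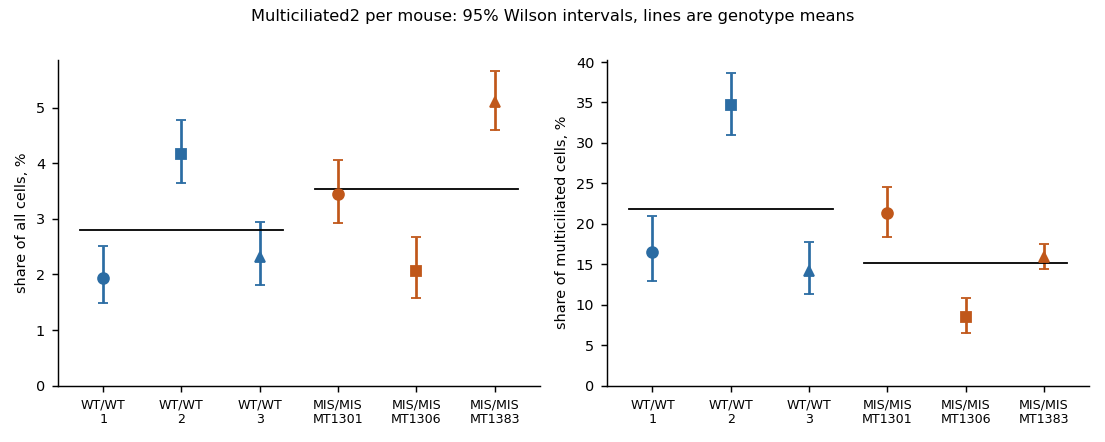
Share of Multiciliated2 among all cells and among multiciliated cells (percent) in each mouse; bars are 95% Wilson intervals for counting error and lines are genotype means. The genotypes overlap in both panels, and WT/WT mouse 2 has the highest share of multiciliated cells, at 34.7%.

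The second question is which genes differed between MIS/MIS and WT/WT Multiciliated2 cells. Of 11674 genes tested 1 passed (0.00857%), and 408 (3.49%) had an unadjusted p under 0.05. The gene was *Wdfy1*, an endosomal protein with a FYVE domain encoded on chromosome 1 (79702262 to 79776143, minus strand), while *Dnaaf5* lies on chromosome 5. *Wdfy1* was at 24.2, 30.4 and 24.3 CPM in WT/WT and at 81.4, 77.5 and 90.8 CPM in MIS/MIS mice, so that the groups did not overlap. It rose by 1.62 ± 0.13 (log2 fold change ± SE, limma adjusted p = 0.0043). In Multiciliated3 the difference was 1.95 ± 0.09, and the 2 differences were not told apart (limma, -0.29 ± 0.12, adjusted p = 0.996). Without WT/WT mouse 1 or WT/WT mouse 3 its adjusted p was 0.056 and 0.052 (limma), and 0.36 with cells thinned to 5000 UMIs, where 6403 genes could be tested and the log2 fold change was 1.25.

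*Dnaaf5* was at 28.0, 31.7 and 36.9 CPM in WT/WT and at 42.0, 29.6 and 37.0 CPM in MIS/MIS mice, with a log2 fold change of 0.18 ± 0.15 (limma adjusted p = 0.987). The missense allele is not read by this 3′ assay, so the level checks the transcript and not the labels. The 5 deuterosomal markers did not pass. Their log2 fold changes were 0.02 ± 0.12 for *Deup1*, -0.07 ± 0.13 for *Ccno*, -0.02 ± 0.18 for *Mcidas*, -0.10 ± 0.16 for *Hyls1* and -0.09 ± 0.13 for *Shisa8*, and the genotypes overlapped in all 5.

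The genes next in order of p did not pass. *Gm47283*, annotated at 90784738 to 90816464 of chromosome Y, was at 80.2, 134 and 226 CPM in WT/WT and at 5.82, 28.1 and 1.66 CPM in MIS/MIS mice (log2 fold change -5.17 ± 0.70, limma adjusted p = 0.217). Whether its UMIs came from chromosome Y alone was not tested. *Ddx3y*, also on chromosome Y and looked at after its values were seen, was at 38.4 to 48.3 CPM in all 6 mice. With thinned cells *Gm47283* did pass (limma adjusted p = 0.0176). *Hotairm1*, a long noncoding RNA of the HoxA cluster, was at 19.3, 18.97 and 23.1 CPM in WT/WT and at 35.7, 51.9 and 55.1 CPM in MIS/MIS mice (1.20 ± 0.20, limma adjusted p = 0.727), and passed when MT1301 was left out (limma adjusted p = 0.0185). *Mt1* (a metallothionein), *1700097N02Rik* and *Riiad1* had log2 fold changes of 0.59, 0.69 and 0.51. *Fank1* (a gene known from testis), *Krt4*, *Gsto1* (a glutathione transferase) and *Clca3a2* had log2 fold changes of -0.81, -0.995, -0.35 and -0.90.

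By gene group, 0 members of the ciliary and cell cycle lists passed the test. Dynein assembly factors had positive log2 fold changes in 17 of 18 genes (median 0.14), radial spoke and central pair genes in 29 of 32 (0.15) and outer arm genes in 12 of 13 (0.13), whereas over all genes 5702 were positive and 5972 negative, with a median of -0.0045. The largest in these lists were *Daw1* with 0.41 ± 0.28, *Tcte1* with 0.67 ± 0.31, *Efcab1* with 0.74 ± 0.31 and, of the inner arms, *Dnah10* with 1.05 ± 0.72. The genotypes overlapped in each of these genes. *Dnah10* was low, at 3.87, 1.77 and 0.901 CPM in WT/WT and 1.53, 2.52 and 7.59 CPM in MIS/MIS mice. *Daw1* was at 2.58 to 5.06 CPM over all mice. *Efcab1* was at 23.8, 37.9 and 25.2 CPM in WT/WT and 39.5, 33.9 and 77.0 CPM in MIS/MIS mice. Centriole amplification genes were positive in 24 of 34 (0.08), from *Ccdc78* with 0.40 ± 0.20 to *Cep135* with -0.12 ± 0.10, and regulators in 9 of 15 (0.05), from *Foxn4* with 0.33 ± 0.17 to *Rfx3* with -0.14 ± 0.15. Transition zone genes were positive in 24 of 31 (0.12) and intraflagellar transport genes in 20 of 29 (0.07). Without MT1383 the medians were 0.07 for dynein assembly factors, 0.06 for outer arms, 0.02 for radial spoke and central pair genes and -0.07 for inner arms, in place of 0.13 for the last. The inner arm list also held *Dnah8*, the outer-arm chain of sperm. The median of the centriole amplification genes was -0.02 without WT/WT mouse 2 or without MT1383. In the mitotic oscillator list *Cdkn1c* had the largest value, 1.29 ± 1.23, with 3.54, 45.8 and 3.90 CPM in WT/WT and 38.2, 3.24 and 80.8 CPM in MIS/MIS mice, so that the genotypes overlapped. Every MIS/MIS mouse was above every WT/WT mouse in 4.76% of all genes and below in 3.01%. By that rule 0 of 18 dynein assembly factors and 0 of 34 centriole amplification genes did so in either direction, 3 of 31 transition zone genes were above and 0 below, and 3 of 10 secretory genes were below and 0 above. Among outer arm (13), intraflagellar transport (29) and regulator (15) genes 0 did so. Above were 2 of 14 inner arm, 1 of 32 radial spoke, 2 of 24 tektin and 3 of 26 mitotic oscillator genes, with 0 below. Of 29 proliferation genes 3 were above and 2 below. In the proliferation list the log2 fold changes ran from 0.79 ± 0.25 for *Ube2c* to -0.50 ± 0.22 for *Mcm3*, and the genotypes did not overlap in either gene.

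The place of the cells along the order above was also read per mouse, as a description. The median cell had 0.272, 0.396 and 0.411% of its UMIs on the 27 ordering genes in WT/WT mice and 0.420, 0.426 and 0.557% in MIS/MIS mice. Every MIS/MIS mouse was thus above every WT/WT mouse. WT/WT mouse 1 was lowest, MT1383 highest and the other 4 mice lay between 0.396 and 0.426%. The 11 mature multiciliated markers, some of them ordering genes, summed to 3231 to 3680 CPM in WT/WT and 3809 to 4568 CPM in MIS/MIS mice. Their log2 fold changes were positive in 11 of 11 (median 0.21), and 0 passed. The 8 basal markers summed to 704 to 1050 CPM in WT/WT and 536 to 676 CPM in MIS/MIS mice, with negative log2 fold changes in 6 of 7 tested, and the 13 secretory markers to 10099 to 14085 CPM and 9553 to 13394 CPM. The part of these values in those of the ciliary lists was not tested.

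**Figure D5:**
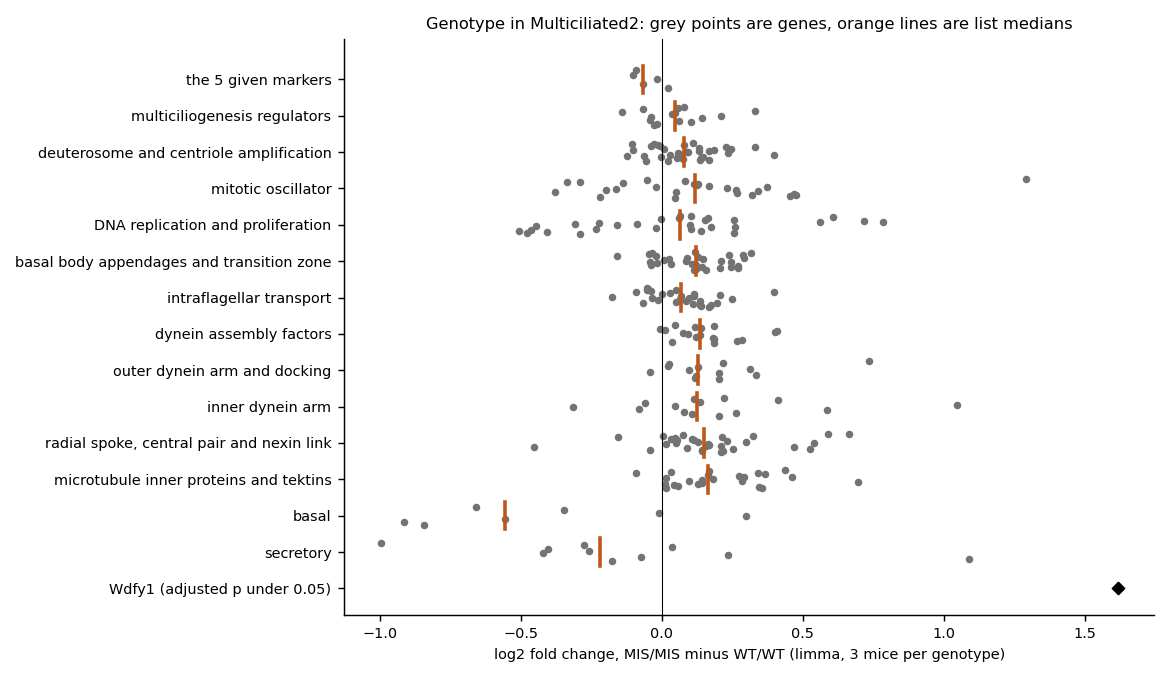
Log2 fold changes of MIS/MIS minus WT/WT in Multiciliated2 (limma, 3 mice each) for the members of 14 gene lists, with 1 grey point per gene, an orange line at each list's median and a black diamond for *Wdfy1*. The medians of the dynein, radial spoke and tektin lists lie between 0.13 and 0.17, the basal median lies at -0.56, and *Wdfy1*, at 1.62, is the gene with an adjusted p under 0.05.

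The genotype effect in Multiciliated2 was also compared with that in Multiciliated3 within each mouse. Of 13237 genes 0 differed by limma (0%), and 507 (3.83%) had an unadjusted p under 0.05. For *Hotairm1* the difference between the clusters was 0.82 ± 0.14 and did not pass (limma unadjusted p = 0.00017, adjusted p = 0.996). Its log2 fold change in Multiciliated3 was 0.38 ± 0.14. For *Fank1*, with -0.91 ± 0.08 in Multiciliated3 (limma adjusted p = 0.0073), the difference was 0.12 ± 0.15 and did not pass either.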

How the data were processed

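The authors deposited a table of unnormalised UMI counts for every cell, and a second table that gives each cell its mouse, genotype and cluster. Per the submitters' processing notes reads were processed with Cell Ranger 7.1.0 on mm10, while the study's methods name another version of it. The authors filtered, clustered and annotated cells in Seurat, with stated limits of at most 25% mitochondrial counts and 2500 to 7500 genes. Here counts were summed per mouse and cluster. CPM is per 1000000 UMIs of that sum. Genes with at least 10 counts in a library of median size in 3 mice, and at least 15 in total, were tested with limma 3.58.1 (voom, TMM scaling, R 4.3.3) and Benjamini-Hochberg adjustment (threshold 0.05). The genotype effect was compared between clusters with limma-trend on within-mouse differences. The code of the fit was run on simulated counts, with a spread between mice that was set and not estimated from these data. That run checks the code and not the results given here. Shares used exact permutation tests. P-values measure the spread between these mice. Cells are identified by mouse for WT/WT mice 1, 2 and 3 through the labels, and for MIS/MIS mice by cell prefix within the genotype. No doublet caller was run. Named genes are the 5 markers, the 20 highest ratios over the next cluster, the extremes of each list and, for genotype, *Dnaaf5*, *Wdfy1*, the genes of lowest p in each direction and the largest and smallest log2 fold change of each list. Other genes named with their levels are list members chosen for their known role or were chosen after their values were seen. The members and lists were chosen with earlier results of these data known. Of 397 entries in 24 gene lists 389 were found among the 20483 genes. Alternatives were upper-quartile scaling, other count filters, stated cell filters, thinning to 5000 UMIs, limma-trend and leaving out each mouse.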

Additional observations from a re-analysis of the deposited data

How the results depend on the processing

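The count of genes that differed between genotypes was 1 under every one of the 6 settings that kept all mice, and 0 to 2 with each mouse left out: 0 without WT/WT mouse 1 or 3 and 2 without MT1301. With thinned cells the gene was *Gm47283* and not *Wdfy1*, and the cause was not tested. The comparison of the genotype effect with Multiciliated3 gave 0 genes under every alternative run, and the 5 markers were highest in Multiciliated2 under each alternative run for them. Leaving out each mouse gave differences of -0.052 to 1.47 percentage points in the share of all cells and -10.4 to -0.193 in the share of multiciliated cells. Of 312 listed genes 183 were higher and 42 lower in the highest than in the lowest tertile in 6 of 6 mice. With thinned cells, in which fewer listed genes reached the level, 143 were higher and 27 lower. Of 53 genes named in the genotype comparison 38 kept their sign in every one of the 12 alternatives that gave a value. The others turned as follows. With thinned cells the log2 fold change was 0.0029 for *Ccno* and 0.023 for *Mcidas*. With upper-quartile scaling it was 0.0022 for *Mcidas* and 0.016 for *Pih1d2*, and with 10 counts in every mouse 0.0011 for *Pih1d2*. Within the stated cell filters it was 0.049 for *Dnal1*, 0.23 for *Krt14* and 0.031 for *Pih1d2*, and with limma-trend 0.070 for *Cd68* and -0.070 for *Cdc20b*. With each mouse left out it ranged from -0.093 to 0.12 for *Deup1*, -0.23 to 0.068 for *Ccno*, -0.23 to 0.18 for *Mcidas*, -0.24 to 0.0020 for *Shisa8*, -0.43 to 0.14 for *Cd68*, -0.22 to 1.70 for *Cd74*, -0.34 to 0.34 for *Cdc20b*, -0.10 to 0.38 for *Dclk1*, -0.13 to 0.018 for *Dnal1*, -0.56 to 0.10 for *Dydc1*, -0.40 to 0.23 for *Gpx8*, -0.076 to 0.033 for *Pih1d2*, -0.11 to 0.16 for *Tekt1* and -0.75 to 0.0345 for *Tubb2b*. No paired analysis was possible because the labels name no litters. Cell prefixes of MIS/MIS mice also match none of the numbers in the labels. The 55 cells of the smallest libraries limit what could be seen in genes of low level, and intervals cover counting error only.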

Other observations

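The genes around *Pidd1* were looked at after its level was seen, so these values are a description. *Pidd1* acts with *Cradd* and *Casp2*, the adaptor and the caspase of 1 complex that cuts *Mdm2*, the inhibitor of p53 (*Trp53*), of which *Cdkn1a* is a target. *Pidd1* was at 55.0 to 67.6 CPM over the 6 mice and *Cdkn1a* at 1228 to 1679 CPM, both highest in Multiciliated2. The adaptor *Cradd* was at 38.5 ± 4.86 CPM (SD, n = 6 mice), against 40.0 CPM in Multiciliated4, and *Casp2* at 4.03 ± 1.24 CPM against 10.3 CPM in Basal6. *Mdm2* was at 220 ± 40.2 CPM in Multiciliated2 and 205 CPM in Multiciliated3, and *Trp53* was at 49.1 CPM against 125 CPM in Basal6. Of the complex, *Pidd1* was the member with its highest mean level in these cells. The repressors *E2f7* and *E2f8* were at 72.6 to 127 and 20.3 to 50.9 CPM, against means of 11.1 and 22.2 CPM in Basal6 and 1.31 and 0.063 CPM in Multiciliated3. The 4 tuft markers summed to 5.41 to 9.48 CPM per mouse in Multiciliated2, and the 6 stromal markers to 1.08 to 6.61 CPM.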
